A study of Mus musculus with 5 samples.

Results

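The 9 genes described here are Csf1, its receptor Csf1r and 7 genes by which macrophages are recognised: Spi1, Lyz2, Cd68, Mpeg1, Adgre1, Msr1 and Ptprc. They were taken by symbol from the 14161 genes listed in any library, and all 9 passed the filter on low counts that left 3710 genes tested. The series looks for genes that depend on BMAL1, a transcription factor of the circadian clock, in marrow mesenchymal stem cells. RNA came from Bmal1-knockout (3 libraries) and wild type (2 libraries) cultures of femur marrow. Both genotypes came from C57BL/6 mice aged 6 to 8 weeks, were grown in α-MEM with 12% serum and were taken at passages 1 to 3. The labels name neither the kind of deletion nor the source of the replicates (animals or cultures). The p-values therefore reach no further than the spread among these libraries, which the fit pooled almost wholly across genes.

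Macrophages live on a growth factor signal. Stromal cells secrete CSF1, which binds the receptor tyrosine kinase CSF1R on monocytes and macrophages and keeps them alive and dividing, and IL34 is the other ligand of that receptor. The transcription factor PU.1, encoded by Spi1, sets the myeloid programme and activates Csf1r itself. Macrophages adhere to plastic as stromal cells do and are a known companion of marrow stromal cultures at early passage.

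The libraries held 226695, 237088 and 281990 expected counts in knockout cells and 243072 and 211623 in the wild type, so single genes of this axis rest on 5 to 2331 counts per library. Levels are given as CPM, counts per 1000000 over the TMM-scaled total of tested genes. A count of 0 allows a level of up to 12.1 to 15.9 CPM. Arntl, the gene symbol of Bmal1, had 4, 1 and 2 counts in knockout cells and 5 and 0 in wild type cells, a ratio of 0.843 with an exact 95% Poisson interval of 0.230 to 3.37, so it does not check the labels at this depth. The labelled cell type was only partly borne out by its markers. All 21 genes of the stromal list were listed, but the surface markers of mesenchymal stem cells were low to scarce. Pdgfra had 12, 21 and 15 counts in knockout cells and 25 and 12 in wild type cells, Ly6a had 9, 17 and 24 against 20 and 15, and Eng had 7, 8 and 6 against 8 and 4. Thy1 had 2, 0 and 0 counts in knockout cells and 3 and 0 in wild type cells, and Nt5e had 5, 3 and 3 against 6 and 3. Lyz2 and Mpeg1, the most abundant genes of the macrophage list, were at 6532 to 10951 CPM and 668 to 1522 CPM over the 5 libraries.

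The ligand and the macrophage genes went opposite ways in the knockout. Csf1 was 2.21-fold higher in knockout than in wild type cells. Csf1r fell to 59.1% of its wild type level, and 7 of the 8 macrophage genes, Csf1r included, were lower at an adjusted p under 0.05. The exception was Ptprc. Over all tested genes 8.14% were called lower and 8.19% higher (16.3% in either direction) by the same test, edgeR's quasi-likelihood test with Benjamini-Hochberg adjustment over 3710 genes. The median log2 fold change of the 8 was -0.65, against 0.01 over all tested genes. With DESeq2, 3 of the 8 were called lower. The members and the gene lists below were chosen with earlier results of these data known. Their shares beside those of all genes are thus a description and no independent test. In bulk RNA, fewer cells of a type and less RNA per cell cannot be told apart.

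**Figure D1:**
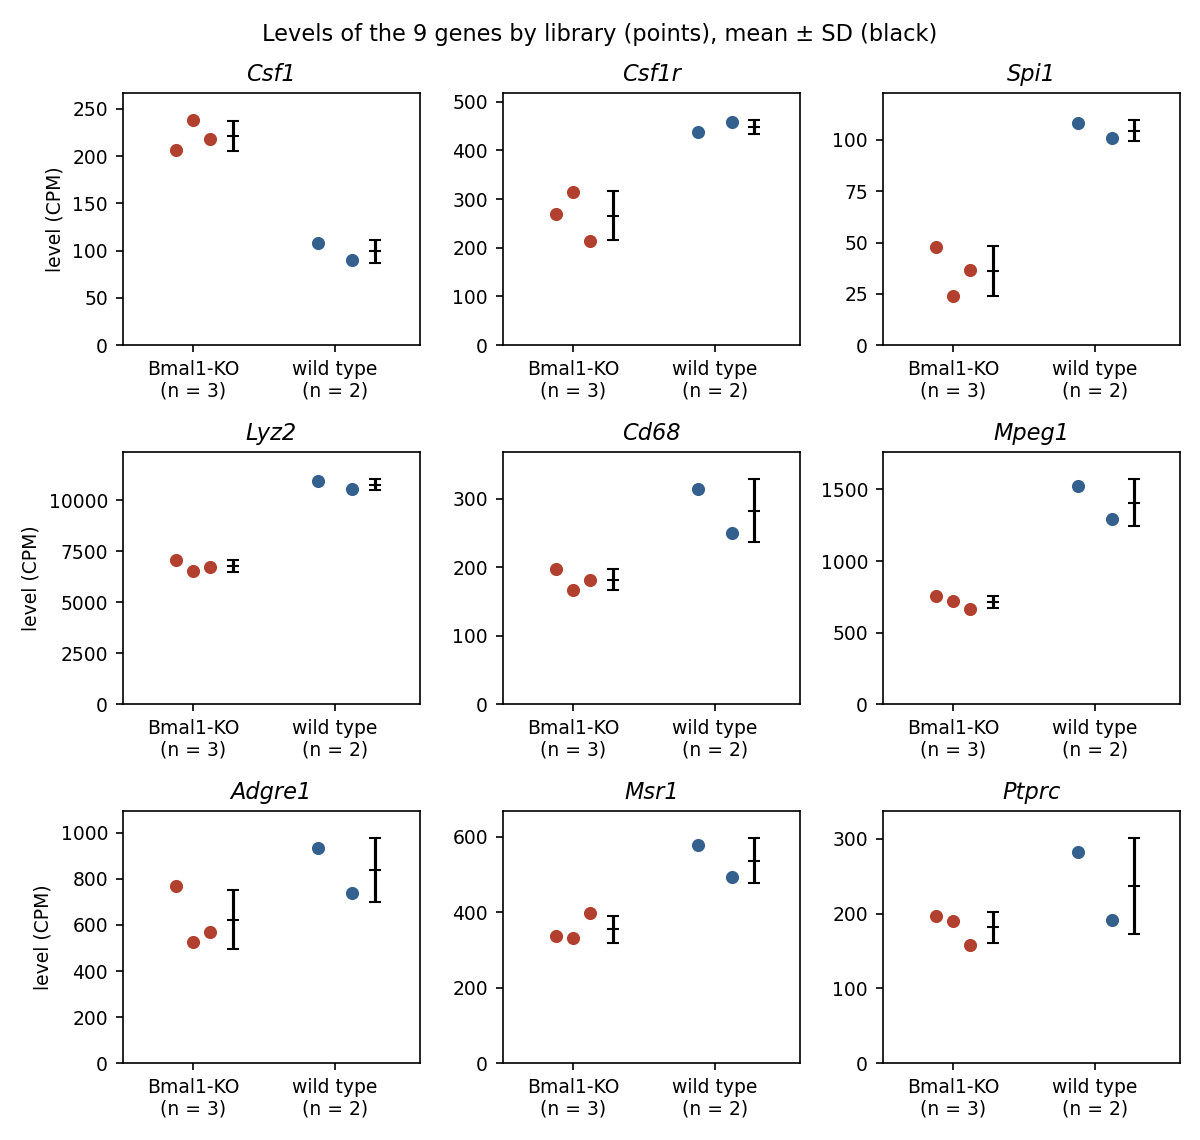
Level of each gene in CPM (linear axis from 0) in the 3 Bmal1-knockout and 2 wild type libraries, with points for libraries and black marks for the mean and SD. Csf1 alone lies higher in every knockout library, and Adgre1 and Ptprc are the genes whose groups overlap.

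Csf1 (Entrez gene 12977, chromosome 3, 107741048 to 107760469, mm10) encodes the macrophage colony-stimulating factor. It had 43, 50 and 54 counts in knockout cells and 23 and 17 in wild type cells, or 207, 238 and 218 CPM against 108 and 90.4 CPM. Every knockout library lay above both wild type libraries. Levels averaged 221 ± 15.7 CPM (SD, n = 3) in knockout cells and 99.2 ± 12.5 CPM (n = 2) in the wild type. The log2 fold change was 1.14 (SE 0.29, adjusted p = 0.00113). Without wild type 2 it was 1.02 and did not pass (adjusted p = 0.0680). Of all tested genes, 21.2% had every knockout library above every wild type library.

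Other ligands were rare. Il34 had 3, 2 and 1 counts in knockout cells and 1 and 0 in wild type cells, and its ratio of 3.61 carried an exact Poisson interval of 0.439 to 166. Csf2 and Csf3, the granulocyte factors that stromal cells can secrete, were listed in no library. Kitl, the stem cell factor, had 30 knockout and 8 wild type counts in all and did not pass (1.17, adjusted p = 0.281). Of both ligands of CSF1R, Csf1 thus carried nearly all the counts.

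Csf1r (Entrez gene 12978, chromosome 18) had 56, 66 and 53 counts in knockout cells and 93 and 86 in wild type cells. The levels were 269, 314 and 214 CPM against 437 and 457 CPM. The groups did not overlap. Among knockout libraries, knockout 2 had the highest CPM of both Csf1r and Csf1, though knockout 3 had more Csf1 counts (54 against 50). This order among knockout libraries was not tested. Csf1r averaged 266 ± 49.7 CPM in the knockout (SD, n = 3) and 447 ± 14.3 CPM in the wild type (n = 2), for a log2 fold change that came to -0.76 (SE 0.19, adjusted p = 0.00111). It did not pass without wild type 2 (-0.73, adjusted p = 0.0557) or on log2(FPKM + 1) values (-0.79, adjusted p = 0.0687). Exons of Csf1r share 873 bases with exons of Hmgxb3 on the other strand, and without a stated strand setting reads there cannot be assigned. Hmgxb3 itself was far lower, at 54.8 ± 15.3 CPM in the knockout (SD, n = 3) and 73.9 ± 21.8 CPM in the wild type (n = 2).

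Set against each other, ligand and receptor changed their proportion. The ratio of Csf1 FPKM to Csf1r FPKM, which allows for gene length, was 0.761, 0.724 and 0.992 in knockout cells and 0.237 and 0.182 in wild type cells. All 3 knockout libraries lay far above both wild type libraries. An exact permutation test of 3 against 2 libraries, taking 2 times the smaller tail, gave a two-sided p = 0.2. That is the smallest value this form of the test allows. In the edgeR fit the log2 fold change of Csf1 exceeded that of Csf1r by 1.90 (SE 0.35, 95% interval 1.22 to 2.58), a 3.74-fold shift of the ratio with an interval of 2.34 to 5.98.

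Matrix and contractile genes of stroma moved with Csf1. The 21 stromal genes summed to 17787 to 19237 CPM in knockout cells and 7132 to 7196 CPM in wild type cells, with Col3a1 and Col1a2 the most abundant. Of 15 tested members 9 were higher, against 8.19% of all tested genes, and none was lower. The 9 were Col1a1, Col1a2, Col3a1, Fn1, Sparc, Postn, Lox, Acta2 and the chemokine Cxcl12. Postn (0.91) lost its call with DESeq2 (adjusted p = 0.0547) and on log2(FPKM + 1) values (adjusted p = 0.0700). It was at 0.54 without wild type 2. The surface markers Pdgfra (-0.34), Ly6a (-0.22), Pdgfrb (0.15) and Vcam1 (0.82) did not pass. When the summed stromal count of each library replaced the library size, an analysis added after the data had been seen, Csf1 came to -0.20 on the log2 scale (SE 0.30, adjusted p = 0.539). Its 95% interval reached from 0.575-fold to 1.32-fold, and with each library left out the value ranged from -0.32 to -0.05. A difference between the rise of Csf1 and that of the stromal sum was thus not detectable at this depth.

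**Figure D2:**
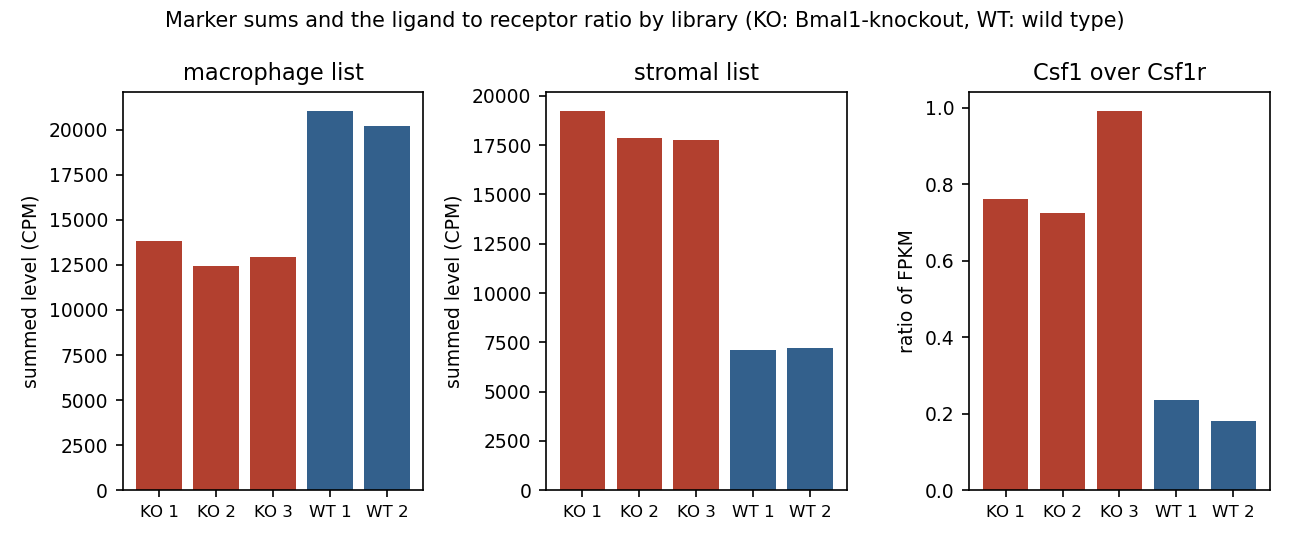
Summed level of the 34-gene macrophage list and of the 21-gene stromal list (CPM, bars from 0) and the ratio of Csf1 to Csf1r FPKM in each library. Macrophage sums lie between 12426 and 13832 CPM in knockout cells, against 20191 and 21043 CPM in wild type cells, and the ratio is 0.724 to 0.992 against 0.182 and 0.237.

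Spi1 (Entrez gene 20375, chromosome 2, 91082374 to 91115759, mm10), the gene of PU.1, had the fewest counts of the 9 over all libraries. It had 10, 5 and 9 counts in knockout cells and 23 and 19 in wild type cells, or 48.0, 23.8 and 36.4 CPM against 108 and 101 CPM. The groups did not overlap, and the lower wild type library stood far above the highest knockout library. The log2 fold change was -1.52 (SE 0.41, adjusted p = 0.00273), the largest fall among the 8, to 34.8% of the wild type with a 95% interval of 20.0% to 60.7%. The call was lost without wild type 1 (-1.49, adjusted p = 0.0572) and with DESeq2 (-1.54, adjusted p = 0.0641).

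Lyz2 (Entrez gene 17105, chromosome 10, 117277541 to 117282272, mm10) encodes lysozyme M, the bactericidal enzyme that macrophages and granulocytes secrete. It had 1476, 1374 and 1667 counts in knockout cells and 2331 and 1991 in wild type cells. As levels these were 7091, 6532 and 6745 CPM against 10951 and 10582 CPM, with a wide gap between the groups and little spread within them. Lyz2 made up 72.4% to 75.2% of all counts of the 8 macrophage genes, so a sum over them is mostly Lyz2. Its log2 fold change of -0.67 (SE 0.10, adjusted p = 1.79e-10) held under every alternative tried.

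Lyz1, the neighbouring lysozyme copy made by Paneth cells of the gut, had 1, 0 and 1 counts in knockout cells and 0 and 4 in wild type cells. The expected counts of Lyz2 were whole in every library, and whether reads were placed on the wrong copy was not tested. The start sites of the pair lie 10596 bases apart. The 250 bases before each start are shown here because the copies differ so much in level, together with those of Mpeg1, the other gene that fell under every alternative, and of Csf1, which rose. They are RefSeq sequences of GRCm38.p6 (mm10), 5′ to 3′ on the gene's strand, and capitals mark the letters AGGAAGT of an ETS family site on either strand. Lyz2 is at chr10:117282273-117282522 and Lyz1 at chr10:117292869-117293118, both on the minus strand, Mpeg1 at chr19:12460520-12460769 on the plus strand and Csf1 at chr3:107760470-107760719 on the minus strand.
Lyz2: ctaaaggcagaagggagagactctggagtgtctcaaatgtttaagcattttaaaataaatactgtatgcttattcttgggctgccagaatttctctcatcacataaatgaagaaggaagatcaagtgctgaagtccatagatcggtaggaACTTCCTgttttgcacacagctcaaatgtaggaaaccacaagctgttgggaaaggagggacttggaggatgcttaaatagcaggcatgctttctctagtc
Lyz1: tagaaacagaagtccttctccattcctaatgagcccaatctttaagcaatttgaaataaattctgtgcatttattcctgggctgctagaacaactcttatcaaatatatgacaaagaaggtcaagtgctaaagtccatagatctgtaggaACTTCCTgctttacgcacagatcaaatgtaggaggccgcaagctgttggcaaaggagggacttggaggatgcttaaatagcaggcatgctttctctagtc
Mpeg1: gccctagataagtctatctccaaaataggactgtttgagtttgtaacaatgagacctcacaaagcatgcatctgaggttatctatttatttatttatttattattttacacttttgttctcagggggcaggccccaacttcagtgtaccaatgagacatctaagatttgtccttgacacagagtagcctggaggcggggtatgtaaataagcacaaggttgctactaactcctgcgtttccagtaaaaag
Csf1: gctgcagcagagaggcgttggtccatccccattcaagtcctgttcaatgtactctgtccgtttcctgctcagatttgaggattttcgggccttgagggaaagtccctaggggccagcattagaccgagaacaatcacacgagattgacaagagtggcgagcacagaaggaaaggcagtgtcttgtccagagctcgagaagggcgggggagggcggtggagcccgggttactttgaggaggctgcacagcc

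Base for base, Lyz2 and Lyz1 were identical at 152 of these 250 positions (60.8%) and at 92 of the 100 nearest the start, the ETS letters included. The RefSeq promoter table matched 5 of the 9 genes, Csf1, Lyz2, Cd68, Mpeg1 and Ptprc, with windows from 250 bases before to 50 after each start. The letters AGGAAGT, searched on both strands, were found in the windows of Lyz2 and Ptprc and in 9.35% of all 32851 windows. The longer PU.1 site GAGGAAGT, which contains those letters, was in none of the 5 and in 3.20% of all windows. The E-box CACGTG, which BMAL1 and CLOCK bind, was also in none of the 5, against 7.15% of all windows. A match or its lack describes these windows only.

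Cd68 and Mpeg1 encode proteins of the lysosome. Cd68 (Entrez gene 12514, chromosome 11, 69664213 to 69666170, mm10), a sialomucin of the lysosomal membrane, had 197, 166 and 182 CPM in knockout cells and 315 and 250 CPM in wild type cells. The groups did not overlap, but the wild type pair was spread widely. Its log2 fold change of -0.64 (SE 0.24, adjusted p = 0.0447) lay just inside the threshold. It missed the threshold when any library but knockout 1 was left out (-0.80 to -0.48), with DESeq2 (-0.64), with no filter (-0.61) and with the replicate number as a block (-0.63), with adjusted p from 0.0785 to 0.439.

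Mpeg1 (Entrez gene 17476, chromosome 19, 12460770 to 12465285, mm10) encodes perforin-2, which makes pores in engulfed bacteria. It had 157, 152 and 165 counts in knockout cells and 324 and 243 in wild type cells. The levels of 754, 723 and 668 CPM against 1522 and 1292 CPM left a gap wider than either group. The log2 fold change was -0.98 (SE 0.13, adjusted p = 1.88e-12), or 50.6% of the wild type level with a 95% interval of 42.5% to 60.3%, and it passed under every alternative tried.

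Adgre1, Msr1 and Ptprc encode surface proteins. Adgre1 (Entrez gene 13733, chromosome 17, 57358581 to 57483529, mm10) encodes the F4/80 antigen by which mouse macrophages are stained. Its levels were 769, 528 and 571 CPM in knockout cells and 935 and 739 CPM in wild type cells, so that knockout 1 lay above wild type 2. The log2 fold change of -0.44 (SE 0.14, adjusted p = 0.0174) was not stable. It lost its call without knockout 2 (-0.33), knockout 3 (-0.38) or wild type 1 (-0.27), with DESeq2 (-0.44), with no filter (-0.41), on log2(FPKM + 1) values (-0.47) and with the replicate block (-0.37), with adjusted p from 0.111 to 0.501.

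Msr1 (Entrez gene 20288, chromosome 8, 39543232 to 39642750, mm10), the scavenger receptor that takes up modified lipoproteins, had 336, 333 and 397 CPM in knockout cells and 578 and 494 CPM in wild type cells. Its groups did not overlap. The log2 fold change was -0.59 (SE 0.17, adjusted p = 0.00582), and it missed the threshold when wild type 1 was left out (-0.49, adjusted p = 0.239) and with DESeq2 (-0.60, adjusted p = 0.0698).

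Ptprc (Entrez gene 19264, chromosome 1, 138062859 to 138175756, mm10) encodes CD45, the phosphatase on the surface of all leukocytes. It had 197, 190 and 158 CPM in knockout cells and 282 and 191 CPM in wild type cells, and wild type 2 lay within the range of the knockout. The log2 fold change of -0.40 did not pass (SE 0.25, adjusted p = 0.292). Its 95% interval, 54.2% to 106% of the wild type level, includes both no change and the fall of Lyz2. Of the 8 macrophage genes, 6 had all knockout libraries below both wild type libraries, as did 21.6% of all tested genes.

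Per unit of gene length, Lyz2 stood far above the rest at 3831 ± 290 FPKM in knockout cells and 6508 ± 198 FPKM in the wild type (SD, n = 3 and n = 2). In the knockout it was followed by Adgre1 at 139 ± 33.5 FPKM, Mpeg1 at 111 ± 9.21, Cd68 at 111 ± 12.5 and Msr1 at 103 ± 7.56, whose spreads overlap. Csf1r at 49.1 ± 9.60 FPKM and Csf1 at 39.6 ± 1.64 came next and did not differ beyond their spread. Ptprc at 24.7 ± 3.70 and Spi1 at 18.7 ± 6.80 FPKM were lowest and also overlapped. In the wild type the order below Lyz2 was Mpeg1 at 226 ± 20.0 FPKM, Adgre1 at 190 ± 29.1, Cd68 at 176 ± 26.6 and Msr1 at 171 ± 6.77. Csf1r at 84.4 ± 3.73, Spi1 at 55.1 ± 1.97, Ptprc at 32.6 ± 8.43 and Csf1 at 17.6 ± 2.50 FPKM were separated by more than their spreads. Csf1 was thus the least abundant of the 9 in the wild type, and in the knockout it stood above Ptprc and Spi1.

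Whether the macrophage genes fell by 1 shared factor was tested by taking each gene relative to Lyz2. The Lyz2 count of a library replaced its size in the edgeR fit, so that a log2 fold change of 0 means the same fall as Lyz2. This scale moves the median of all genes to 0.67, and 43.0% of the other 3709 tested genes were called, 41.4% as higher and 1.54% as lower than the Lyz2 ratio. None of the 7 other macrophage genes passed, while 2 of them, Mpeg1 and Spi1, had an unadjusted p under 0.05.

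Csf1r, Cd68 and Msr1 lay closest to Lyz2. Relative to it, Csf1r was at -0.09 (SE 0.20, adjusted p = 0.730), with a 95% interval of 0.718-fold to 1.23-fold. Cd68 was at 0.03 (interval 0.734-fold to 1.41-fold) and Msr1 at 0.08 (0.826-fold to 1.35-fold). At the ratio of Lyz2, the knockout libraries would have held 187 counts of Csf1r, and 175 were observed. For Cd68 the counts were 121 observed against 119 at the Lyz2 ratio, and for Msr1 238 against 226.

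Adgre1 and Ptprc were at 0.23 and 0.27 on this scale and did not pass (adjusted p = 0.234 and 0.394). Their intervals, 0.946-fold to 1.45-fold and 0.858-fold to 1.69-fold, include 1. Mpeg1 and Spi1 were at -0.31 (SE 0.15, adjusted p = 0.0714) and -0.86 (SE 0.41, adjusted p = 0.0747) and did not pass either. Spi1 had 24 knockout counts where the Lyz2 ratio gives 43.9, and Mpeg1 had 474 where it gives 593. Without knockout 1, Mpeg1 passed relative to Lyz2 (-0.33, adjusted p = 0.0232). Where an interval includes 1, it bounds a departure from the shared factor and does not show that there is none. The macrophage genes other than Lyz2 were not tested against each other. On the TMM scale Adgre1 had an interval of 60.9% to 89.6% of the wild type level. Those of Mpeg1 (42.5% to 60.3%) and Spi1 (20.0% to 60.7%) ended just below it, and all other pairs of these macrophage genes overlapped.

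Other scales than Lyz2 were also tried. With the summed counts of the other genes of the macrophage list as the scale, Mpeg1 was at -0.36 and Spi1 at -0.92, and Lyz2 itself could be compared and was at -0.05 (adjusted p = 0.844). The 7 macrophage genes other than Lyz2 summed to 2358 ± 186 CPM in the knockout (SD, n = 3) and 3850 ± 462 CPM in the wild type (n = 2). That is 61.2% of the wild type, beside 63.1% for Lyz2. Mpeg1 and Adgre1, at 50.6% and 73.9% of the wild type, are the largest parts of this sum, which averages over both. Csf1 relative to Lyz2 was at 1.81 (SE 0.29, adjusted p = 6.64e-09), from 2.91, 3.64 and 3.24 counts per 100 Lyz2 counts in knockout cells and 0.987 and 0.854 in wild type cells. That call held under every alternative scale and with any library left out.

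**Figure D3:**
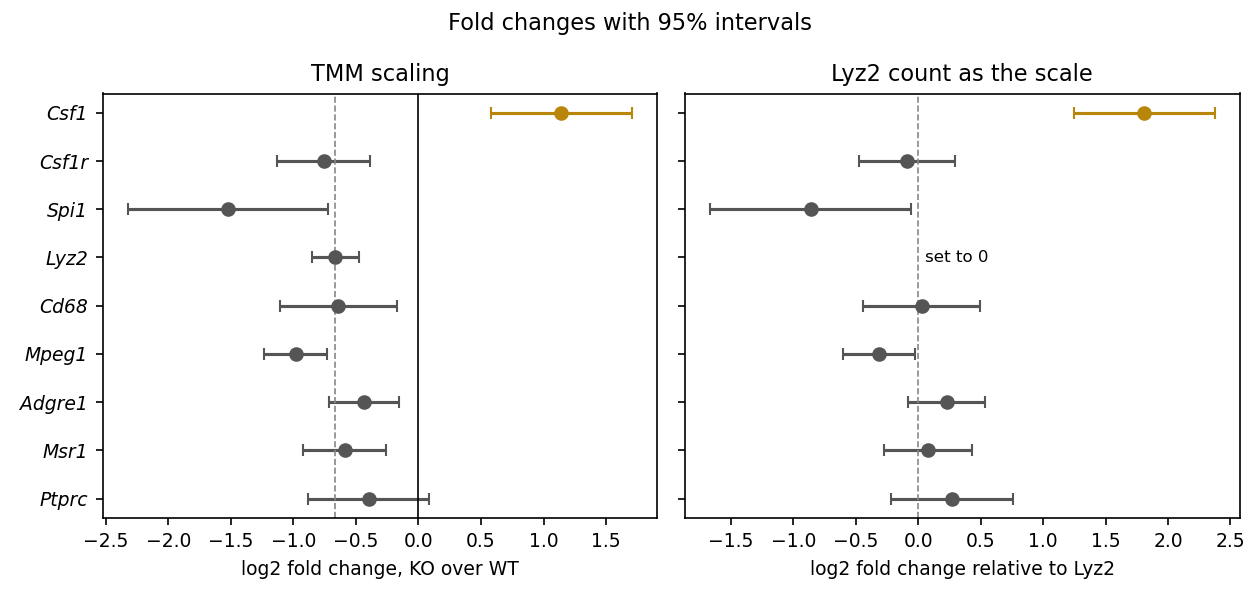
Log2 fold change of each gene, Bmal1-knockout over wild type, with 95% intervals, on the TMM scale (left, dashed line at the value of Lyz2) and relative to the Lyz2 count (right, Lyz2 set to 0). On the right, Csf1 lies at 1.81, 5 intervals of macrophage genes include 0, and those of Mpeg1 and Spi1 end just below it.

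The wider macrophage list, drawn up with earlier results of these data known, ran along. Of its 34 genes 33 were listed and 28 tested, 13 fell (8.14% of all tested genes did), none rose and 27 of the 28 had a negative log2 fold change, with a median of -0.63. Leaving out the 8 genes above, 6 of 20 fell. They were Ctss, a protease of antigen presentation (-0.86), Cybb and Cyba, the membrane subunits of the phagocyte oxidase (-0.78 and -0.96), Cd14, a coreceptor for lipopolysaccharide (-1.18), C1qa, a chain of complement C1q (-0.63), and Itgam, the integrin CD11b (-0.55). Cd14 did not pass without wild type 2 (-0.81), nor did C1qa (-0.45). Cyba was lost without knockout 2 (-0.76) or wild type 2 (-0.86), and Itgam without knockout 2 (-0.40), wild type 1 (-0.56) or wild type 2 (-0.57). With no filter and with DESeq2, Cyba (adjusted p = 0.0525 and 0.103) and Itgam (0.0775 and 0.108) lost their calls too. Itgam and Cd14 did not pass on log2(FPKM + 1) values (adjusted p = 0.162 and 0.0722), nor C1qa with DESeq2 (adjusted p = 0.0657). Without wild type 2, 7 of the list fell.

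Relative to Lyz2, 1 of the other 27 tested macrophage genes departed, against 43.0% of all tested genes. This was Mrc1, the mannose receptor of alternatively activated macrophages, with 46, 49 and 39 counts in knockout cells and 46 and 26 in wild type cells. Mrc1 was at 0.18 on the TMM scale (adjusted p = 0.711) and -0.10 without wild type 2. Relative to Lyz2 it was at 0.84 (adjusted p = 0.00469), but not when wild type 2 was left out (0.59, adjusted p = 0.142). The median of the 27 relative to Lyz2 was 0.04, beside 0.67 over all tested genes.

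Some receptors and signal carriers of the pathway fell. Of 45 genes for ligands, related receptors and downstream signalling, 41 were listed and 28 tested: Csf1 rose, 6 genes fell and 21 did not pass, with a median log2 fold change of -0.34. The shares over all tested genes were 8.19% higher and 8.14% lower. Besides Csf1r, the genes that fell included Csf2rb and Csf2rb2, β chains of the GM-CSF, IL-3 and IL-5 receptor family (-1.48 and -1.67). Syk, a kinase of immunoreceptor signalling (-0.91), and Dok1, an adaptor that dampens receptor kinases (-1.76), fell too. Csf2rb had 8, 9 and 18 counts in knockout cells and 36 and 23 in wild type cells. The pair are close copies, and reads shared between them may have been split by the counting.

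Several of these falls leaned on single libraries. Without wild type 1, Csf2rb was at -1.23 (adjusted p = 0.0963). Syk lost its call when any library but knockout 1 was left out (-1.09 to -0.75), and also with DESeq2, with no filter, on log2(FPKM + 1) values and with the replicate block (adjusted p from 0.143 to 0.198). Dok1 was lost without wild type 1 (-2.08) or wild type 2 (-1.40), with voom (adjusted p = 0.0933) and with the replicate block (adjusted p = 0.0785). In all, 2 genes of the list fell without wild type 1 and 3 without wild type 2. Tyrobp, the adaptor DAP12 through which CSF1R also signals, had 24, 24 and 36 counts in knockout cells, against 38 and 40 in wild type cells and did not pass (-0.63, adjusted p = 0.104). Mapk3 and Grb2, general carriers of growth factor signals, were at -0.01 and -0.58 and did not pass either.

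Relative to Lyz2, 1 gene of this pathway list was lower, Csf2rb2 at -1.02 (adjusted p = 0.0461). That call too was lost when any library but knockout 1 was left out (-1.09 to -0.82) and with the replicate block (-0.88). Higher than the Lyz2 ratio were 6 of 28, against 41.4% of all tested genes. Besides Csf1 these were Kitl, Sdc1, Shc1, Pik3r1 and Akt1, none of which passed on the TMM scale, where they were at 1.17, 0.25, 1.07, 1.39 and 0.31. Pik3r1, the regulatory subunit of PI3 kinase, was at 2.04 relative to Lyz2 (adjusted p = 0.000775), beside an adjusted p of 0.0621 on the TMM scale. It passed relative to Lyz2 with any library left out. Each of Kitl, Sdc1, Shc1 and Akt1 lost its call in at least 1 such fit.

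**Figure D4:**
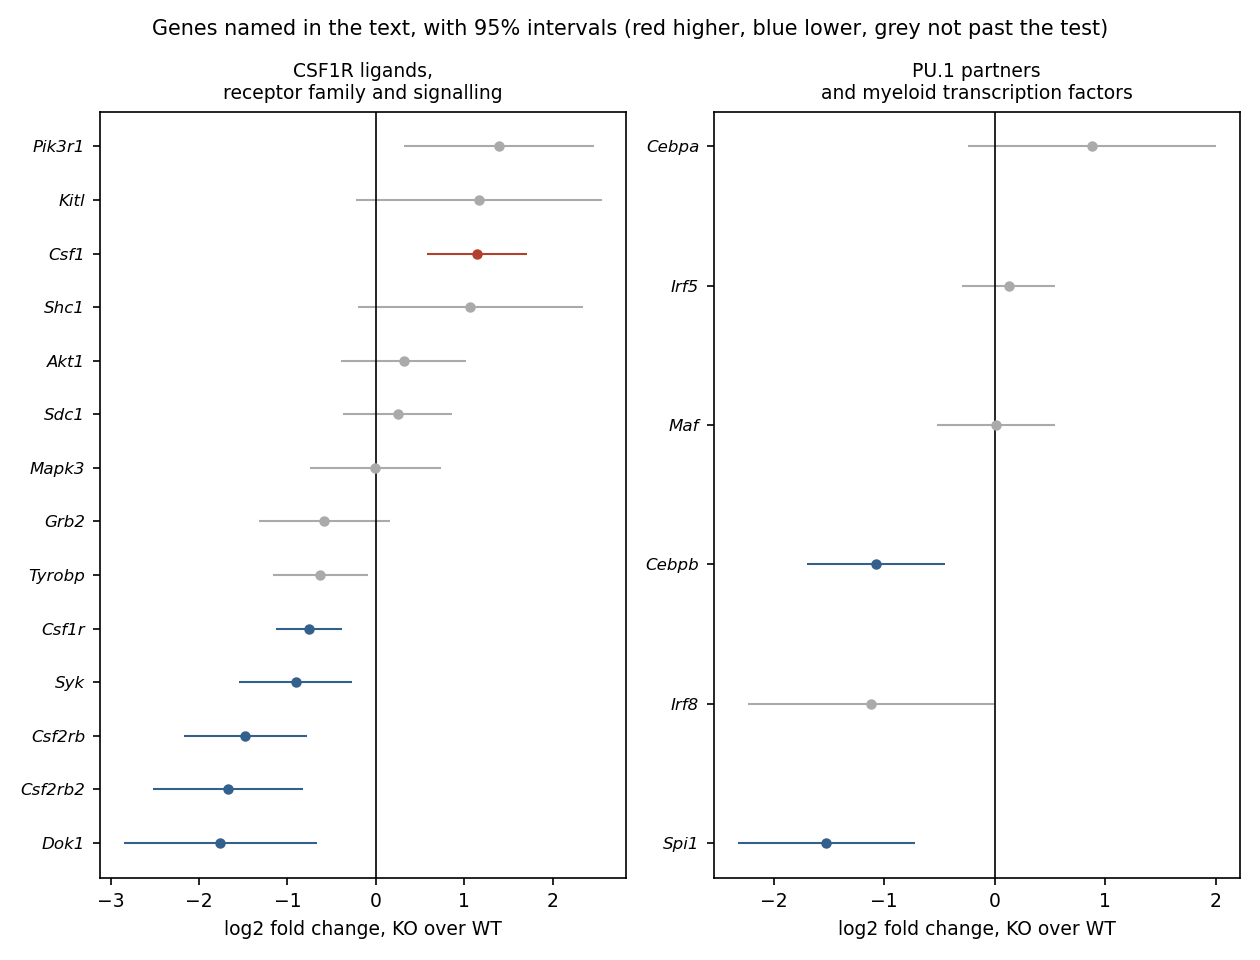
Log2 fold change, Bmal1-knockout over wild type, with 95% intervals for the genes named in the text from the CSF1R pathway list (left) and the myeloid transcription factor list (right). Csf1 is the single red point, and Csf1r at -0.76 and Spi1 at -1.52 are among the blue points on the left of 0.

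Partners of PU.1 were mostly too low to test. Of 31 myeloid transcription factors 27 were listed and 13 tested, and 2 fell, Spi1 and Cebpb, against 8.14% of all tested genes, with a median of -0.33. Cebpb, a factor of inflammatory macrophages and of early fat cells, was at -1.07 (adjusted p = 0.00737), lost without knockout 3 (-0.76) or wild type 1 (-0.59), with DESeq2 (adjusted p = 0.139), on log2(FPKM + 1) values (adjusted p = 0.124) and with the replicate block (-0.73, adjusted p = 0.178). In all, 312 bases of its exons lie opposite Tmem189. Without wild type 1 none of the list passed, since Spi1 was lost as well. Relative to Lyz2 none was lower and 3 of 13 were higher, against 41.4% of all tested genes. These were Irf5, Cebpa and Maf, at 0.13, 0.88 and 0.01 on the TMM scale, where none passed, and none of the 3 calls relative to Lyz2 held without wild type 1. Irf8, which pairs with PU.1 in monocyte fate, had 4, 11 and 3 counts in knockout cells and 14 and 10 in wild type cells (-1.12, adjusted p = 0.177).

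Markers of other blood cells that could share Ptprc or Lyz2 were scarce. Of the neutrophil list, 7 of 14 genes were listed, with sums of 71.3 to 85.0 CPM in knockout cells and 122 to 170 CPM in wild type cells, led by Mmp8 and Csf3r. Of the granule genes, Elane, Mpo, Ltf and Ngp were listed in no library, and Prtn3, Ctsg, Camp and S100a8 had at most 3 counts in any library. B cell genes summed to 6 to 18 counts per knockout library and 3 and 5 per wild type library, led by Ebf1 and Cd79a, with Pax5 unlisted. T and NK cell genes, led by Cd8a and Cd4, summed to 7 to 9 counts in knockout cells and 8 in each wild type library, with Cd3e unlisted. Erythroid genes summed to at most 1 count in any library, and Alas2 and Slc4a1 were the 2 listed.

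Osteoclasts, which also depend on CSF1, were represented by 8 of 11 genes, with sums of 510 to 585 CPM in the knockout against 977 to 983 CPM in the wild type. Mmp9 (-0.66) and Acp5 (-1.35) fell, and both are also made by macrophages. Mmp9 was lost without wild type 2 (-0.58) and Acp5 without wild type 1 (-0.89), and 137 exon bases of Acp5 lie opposite another gene. Mmp9 was also lost with DESeq2 (adjusted p = 0.0535) and on log2(FPKM + 1) values (adjusted p = 0.0636). Calcr, Dcstamp and Ocstamp, markers of mature osteoclasts, were listed in no library. Ctsk, another osteoclast marker, had 24, 15 and 15 counts in knockout cells and 27 and 23 in wild type cells. It did not pass (-0.61, adjusted p = 0.225). Oscar, Atp6v0d2, Itgb3, Nfatc1 and Tnfrsf11a were listed but too low to test. On the Lyz2 scale Acp5 was lower (-0.68, adjusted p = 0.0486), a call lost without knockout 1, 2 or 3. Without wild type 1 it was at -0.23 on that scale. The dendritic cell list summed to 1100 to 1347 CPM against 1781 to 2100 CPM, almost all of it Zbtb46, with Xcr1 next, while Itgax, Flt3 and Cd209a were unlisted. Zbtb46 was at -0.70 (adjusted p = 1.52e-07). Pf4, the platelet chemokine that marrow macrophages can also hold, led the megakaryocyte list with Ppbp, which summed to 207 to 243 CPM against 383 to 404 CPM. Pf4 was at -0.66, a fall that did not pass without knockout 2 (-0.63), wild type 1 (-0.62) or wild type 2 (-0.72). Its call was also lost with no filter (adjusted p = 0.0811) and with DESeq2 (adjusted p = 0.107). Endothelial genes, led by Pecam1 and Emcn, summed to 128 to 192 CPM in knockout cells and 165 to 202 CPM in the wild type, and proliferation genes, led by Ccna2 and Mki67, to 366 to 586 CPM against 420 to 428 CPM. Ccna2, with means of 237 CPM in knockout and 214 CPM in wild type cells, has 510 exon bases opposite Exosc9. On the Lyz2 scale Zbtb46 was at -0.03, Pf4 at 0.01 and Mmp9 at 0.01, while Acp5 lay lower. Xcr1 was at 0.80 on that scale and did not pass (adjusted p = 0.0772). A fall near that of Lyz2 was thus not particular to the macrophage list. The part of these cells in the falls above was not tested.

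The genes most like Csf1 and Csf1r over the 5 libraries were found among 1488 tested genes of at least 100 CPM. Log2 CPM of Csf1 ran closest to Unc13a, Tyms and Myl6 (Pearson r of 0.997, 0.997 and 0.996), and 17 genes in all exceeded 0.99. Exons of Unc13a share 495 bases with exons of Colgalt1 on the other strand. Without a stated strand setting, reads counted there for Unc13a may belong to Colgalt1. Csf1r ran closest to Fabp5, a fatty acid binding protein, Grk4 and Rap1b (the first 2 at 0.997 and 0.996), and these 2 alone exceeded 0.99. With 5 points in 2 groups, such values chiefly follow the genotype difference, and they are given as a description.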

How the data were processed

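Per the labels, total RNA of cultured marrow mesenchymal stem cells was sequenced as 3 Bmal1-knockout and 2 wild type Illumina libraries. The authors deposited, per the file headers, 1 table per library with the expected count, FPKM and mean transcript length of each gene. The submitters' processing notes name HISAT2, StringTie, Bowtie2, RSEM and the build mm10, without roles or versions, and no source used here gives the strand setting. The expected count was estimated by the authors before deposit and is not normalised, and their FPKM is scaled by transcript length and library size. A gene absent from a library was taken as 0. Of the listed counts 93.8% to 94.2% were whole within 0.005, as were those of 8 of the 9 members in every library, and counts were rounded.

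The groups were compared with edgeR 4.0.16 in R 4.3.3 (filterByExpr, TMM, robust quasi-likelihood, Benjamini-Hochberg at 0.05 over all tested genes). The fit was checked on simulated counts that gave every gene the same spread beyond counting error. That check does not cover spread that differs between genes. The fit pooled the spread almost wholly across genes, so the spread of a gene's own replicates enters its p little. Standard errors were derived from the quasi-likelihood F, and 95% intervals are normal. Intervals of counts are exact Poisson and cover counting error only. For the shared factor, the log Lyz2 count was the offset. Its counting error is not in those standard errors. The error of the difference between log2 fold changes, which holds it, gave intervals including 0 for the same number of genes (5 of 7). Alternatives were RLE, no filter, DESeq2 1.42.0, limma 3.58.1 (voom, and log2(FPKM + 1)), a replicate block and each library left out. Opposite exons are from GENCODE M21, other positions from RefSeq.

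The members and all gene lists were chosen with earlier results of these data known. Named genes are the members, Arntl, Lyz1, passing genes of the pathway and transcription factor lists, the 2 most abundant genes of each marker list and the 3 genes most like Csf1 and Csf1r. Some genes these rules cover are not reported here. Further genes, such as Mrc1, Ctss, Tyrobp, Pik3r1 and Hmgxb3, were named after their values were seen. The motif AGGAAGT was chosen after the promoter sequences were seen.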

Additional observations from a re-analysis of the deposited data

How the results depend on the processing

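All 8 macrophage genes kept a negative log2 fold change, and Csf1 a positive one, under each alternative run. The number of genes called was less stable. Higher and lower genes came to 145 and 126 with DESeq2 and 177 and 174 on log2(FPKM + 1) values, and to 144 to 323 and 146 to 287 with each library left out. Of the 8 macrophage genes 3 were lower with DESeq2 and 3 to 7 with each library left out, fewest without wild type 1. Relative to Lyz2, 958 to 1423 genes were higher and 31 to 54 lower with each library left out. Csf1 ranged from 1.02 to 1.27 and Csf1r from -0.89 to -0.62 with each library left out, and Csf1r was at -0.79 and did not pass on log2(FPKM + 1) values. The cause of these changes was not tested. With a wild type library left out, the lone one is assumed to vary like the knockout group.

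The labels number the libraries of both groups, but nothing says that a number pairs them. Deviations from the group means correlated at -0.01 for number 1 and 0.03 for number 2. With the replicate block 229 genes were higher and 212 lower, Csf1 was at 1.15 and Csf1r at -0.62, and Cd68 and Adgre1 lost their calls. Low counts limit most members, Spi1 and Csf1 above all.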

Other observations

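The deposited length of a gene is a mean over its transcripts and differed between libraries for some members. For Lyz2, whose RefSeq transcript is listed with 2 further ones, it was 1354, 1363 and 1356 bases in knockout cells and 1287 and 1317 bases in wild type cells. For Msr1 it was 2567, 2461 and 2525 bases against 2440 and 2253 bases. In both genes every knockout library had the longer mean. An exact permutation test gave a two-sided p = 0.2, the smallest that 3 against 2 libraries allow when 2 times the smaller tail is taken. For Csf1 the lengths overlapped, at 3909, 4050 and 3976 bases in knockout cells and 4036 and 4192 bases in wild type cells. FPKM divides by this length, so the FPKM ratio of Lyz2 and Msr1 between the groups includes the difference in length, and the count tests do not.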
